A study of Mus musculus with 8 samples.

Results

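The genes described here encode the proteins of the cytosolic ribosome, measured in mouse embryonic stem cells grown in a medium that induces primitive endoderm. Members were taken by symbol alone: Rpl or Rps, a number, and at most a short suffix. The rule found 79 of the 21812 symbols in the deposited table, 48 for the large and 31 for the small subunit. All 79 passed the filter on low values. The rule also takes in paralogues such as Rpl10l, and it leaves out others, among them Rplp0, Rplp1, Rplp2, Rpsa, Fau and Rack1, which are given separately.

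The cytosolic ribosome translates all nuclear-encoded mRNA, and each of its proteins is normally needed in the same amount as the others. Their mRNAs are among the most abundant in growing cells and belong to the TOP class, whose transcripts begin with a C followed by a run of pyrimidines and whose translation responds to mTORC1 and Larp1. A few members have a paralogue that can take the same place in the ribosome, some of them used mainly in germ cells or muscle. N6-methyladenosine (m6A), a modification that marks many mRNAs for faster decay, is written by a complex in which Mettl3 carries the catalytic site and Virma holds other subunits together.

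The study has 2 lines, Mettl3 and Virma, each with a WT and a cKO group of 2 libraries. The label gives the genotype WT or cKO (conditional knockout) and says that all the cells were in the same medium. The sources used here do not give how the deletion was induced, its position in the gene or the number of clones. They also do not say that the libraries of a group came from separate cultures, so the spread between these libraries may be technical. The p-values rest on that spread together with modelled counting noise and a variance shared across genes, as described under the processing. The labels name a kit of Takara (SMARTer) and one of Vazyme (VAHTS) for total RNA, without saying which library came from which, so line, kit and depth cannot be told apart.

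The deposited values are whole numbers, but they are not raw counts. All 8 libraries have almost the same upper quartile, between 601.25 and 602, and low whole numbers are missing or doubled in a regular pattern. They are called scaled counts here. The pattern gave estimated depths of 6200000 to 6700000 reads in Mettl3 WT, 16000000 to 17600000 in the libraries labelled Mettl3 cKO, 25000000 to 25600000 in the Virma WT pair and 22300000 to 23000000 in the Virma cKO pair, so the Mettl3 WT libraries are the least precise.

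The targeted genes were read first. Mettl3 was at 596 and 588 scaled counts in Mettl3 WT and at 588 and 560 in those labelled Mettl3 cKO. The log2 fold change was −0.04 ± 0.086 (SE; limma adjusted p = 0.702). A gene-level value cannot show the loss of part of a gene, and the label is kept as a label below because its level was not lower. Virma was at 1564 and 1488 in Virma WT and at 1173 and 1214 in Virma cKO, 0.35 lower on the log2 scale (limma adjusted p = 2.22e-13). The pluripotency markers Pou5f1, Sox2, Nanog, Zfp42, Esrrb and Klf4 and the 10 primitive endoderm markers were above 0 in every library. In Virma cKO 5 of the 6 pluripotency markers fell and 1 rose, and in the libraries labelled Mettl3 cKO 2 fell and 2 rose. The primitive endoderm markers summed to 0.837% and 0.839% of all values in Mettl3 WT, 0.543% and 0.545% in the libraries labelled Mettl3 cKO, 0.674% and 0.679% in the Virma WT pair and 0.106% and 0.107% in the Virma cKO pair, where all 10 fell, against 9 of 10 in the Mettl3 comparison. Fibroblast markers, which feeder cells would carry, were all 12 detected and summed to 0.0185% and 0.0194%, 0.0363% and 0.0366%, 0.0466% and 0.0468%, and 0.117% and 0.116% in the same order, and 12 rose in the Virma and 11 in the Mettl3 comparison. Of 6 trophectoderm markers 1 rose and 1 fell in the Virma comparison, and 3 rose and 2 fell in the Mettl3 comparison. For all of these lists, the shares over all genes tested were 35.4% higher and 35.7% lower in the Virma comparison. In the Mettl3 comparison they were 23.7% and 26.8%. The 4 blood markers summed to at most 4 scaled counts in any library, and 2 to 4 of them were at 0. The endoderm and fibroblast markers move with the groups compared below. Their part in those results was not tested, and in bulk RNA fewer cells of a type cannot be told apart from less RNA per cell.

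The starts of the genes are shown first because mRNAs of the TOP class are recognised by that sequence. RefSeq's promoter table for GRCm38.p6, another build than the authors' mm39, held 60 of the 79 members. Each window below covers the 12 bases before and the 18 bases from an annotated start, 5′ to 3′ on the gene's strand, with the longest run of C or T that begins with C within 20 bases of the start in capitals. Shown are 11 of the members described below, chosen after their values were seen so that members that fell and members that rose appear with both long and short runs. Rpl7a, Rpl6, Rpl24, Rpl7l1 and Rpl22l1 had large falls in the Virma comparison, Rps26 and Rps27 fell and Rpl35 rose in the Mettl3 comparison, and Rpl41, Rpl10l and Rpl39l rose in the Virma comparison. The run of Rpl24, 3 bases long, goes past the end of its window, and that of Rpl7l1, also of 3 bases, lies before its window.
Rpl7a at chr2:26910795-26910824 (+): CCCTCTTCTTTCTTTCTCCagcagccgagc
Rpl35 at chr2:39005114-39005143 (−): ccccgCCCTTTCCTCTTTCTCTCgaaccag
Rps26 at chr10:128626489-128626518 (−): gggcaagccgccggatCCTCTTTCgagtct
Rps27 at chr3:90213631-90213660 (−): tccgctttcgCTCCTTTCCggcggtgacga
Rpl22l1 at chr3:28805496-28805525 (+): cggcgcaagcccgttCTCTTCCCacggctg
Rpl6 at chr5:121204489-121204518 (+): tcaCCTCCCgtcattgcttatagaccggaa
Rpl24 at chr16:55966263-55966292 (+): aagctgttgctaggaaacagactgggcgCT
Rpl7l1 at chr17:46782639-46782668 (−): aggctgcgcaagcgcagtagctgaagcacc
Rpl39l at chr16:10170216-10170245 (+): ccaggCCTTTCCggatttccggtggtcgcc
Rpl41 at chr10:128549151-128549180 (−): acgggccggCTCggaagtgacgacaccgag
Rpl10l at chr12:66284384-66284413 (−): ggCCTCCattttgcggctggcggtgggcac
A run of at least 8 bases was present at a start of 31 members, 51.7%, and of 17.2% of all 16770 genes of the table with a promoter entry. A run of at least 5 bases was present in 49 members, 81.7%, and in 54.2% of those genes. The annotated start may lie some bases from the one used in these cells, so a missing run says only that the letters are not in this window.

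As a class, the 79 genes took a smaller share of the library in Virma cKO and a slightly larger share in the libraries labelled Mettl3 cKO, each against its own WT. They made up 7.45% and 7.56% of all scaled counts in Mettl3 WT, 7.82% and 7.81% in the libraries labelled Mettl3 cKO, 6.87% and 6.91% in the Virma WT pair and 6.03% and 6.07% in the Virma cKO pair. No pair of groups overlapped, and the Virma cKO libraries were the lowest of the 8. The group means were 7.51 ± 0.077% (SD, n = 2), 7.82 ± 0.0065%, 6.89 ± 0.028% and 6.05 ± 0.030% in that order. With 2 libraries a group the exact permutation test cannot go below p = 0.333, so no test is given for these shares. Large subunit genes went from 4.34% of values in Virma WT to 3.70% in Virma cKO, and small subunit genes from 2.55% to 2.35%, on average over 2 libraries.

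**Figure D1:**
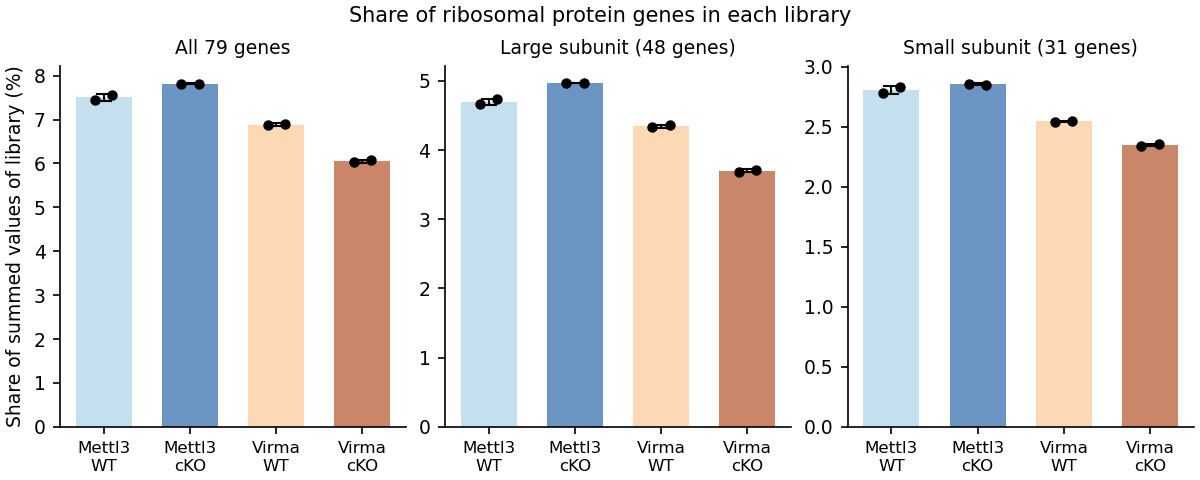
Share of all scaled counts of a library (%) taken by the 79 ribosomal protein genes and by the genes of each subunit; points are libraries, bars are group means and error bars are SD (n = 2). Virma cKO is lowest in all 3 panels, with a mean of 6.05% for all 79 genes.

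In Virma cKO nearly every ribosomal protein gene was lower than in Virma WT. Of the 79 genes 72 fell, 3 rose and 4 did not pass the test (limma, Benjamini-Hochberg adjusted p under 0.05). Over all 14287 genes tested, 35.7% fell and 35.4% rose. The median log2 fold change of the members was −0.35, and the middle 50% of them lay between −0.44 and −0.23, where the median of all genes was 0.00. Of the large subunit genes 44 of 48 fell (median −0.38), and of the small subunit genes 28 of 31 fell (median −0.29). With scaling by the total count 62 fell and 9 rose, and with scaling by the total of all other genes 63 fell and 8 rose. These scalings move the median of all genes in this comparison to 0.15 and 0.13, while the medians of the members become −0.20 and −0.22.

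The largest falls were among large subunit genes. Rpl7a, which encodes eL8, a large subunit protein, was at 30438 and 30889 scaled counts in Virma WT and at 19137 and 19280 in Virma cKO. The groups are far apart, with a log2 fold change of −0.67 ± 0.021 (SE, limma adjusted p = 1.14e-49). Rpl6, which encodes eL6, went from 20717 and 20720 to 13398 and 13239, a change of −0.64 ± 0.022 (limma adjusted p = 8.58e-47). Rpl24, which encodes eL24, a protein of the bridges between the subunits, went from 8059 and 8168 to 5296 and 5263 (−0.62 ± 0.025). In the annotation used here, GENCODE M21, 47.0% of its exon bases also belong to the gene model Gm28037, so its value is uncertain. Rpl13, which encodes eL13, went from 16942 and 17767 to 11852 and 11701 (−0.56 ± 0.024), and Rpl3, whose protein lies beside the peptidyl transferase centre, from 39432 and 39797 to 26865 and 27485 (−0.54 ± 0.021). Both Virma cKO libraries lay below both Virma WT libraries in each of these genes, which was a condition for naming them by their change. Rps13, a small subunit gene, went from 4850 and 4823 to 3176 and 3273 (−0.58 ± 0.028). Among small subunit genes only Rps10, which had 14 to 38 scaled counts in any library, fell by more (−0.62 ± 0.24, limma adjusted p = 0.0188). Rps10 was named after its values were seen.

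A few members departed from the common fall. Rpl41, which encodes the shortest protein of the ribosome, was at 19346 and 18208 scaled counts in Virma WT and at 19681 and 19825 in Virma cKO, a change of 0.07 ± 0.023 (limma adjusted p = 0.003). The rise did not pass the test without Virma WT replicate 2 (limma adjusted p = 0.275), although the groups do not overlap. Rps21, a small subunit gene, was at 8020 and 7615 in Virma WT and at 7690 and 7860 in Virma cKO, so the groups overlap (−0.01 ± 0.025, limma adjusted p = 0.79). With the length and GC trend removed it passed as higher (0.06, limma adjusted p = 0.0203). Rps29 and Rps27l, named here after their values were seen, also did not pass the test, with changes of −0.01 ± 0.030 and −0.01 ± 0.036. Rps24, Rps2 and Rps15a passed with small falls of −0.06 ± 0.025, −0.09 ± 0.022 and −0.06 ± 0.024. With scaling by the total count all 3 have the opposite sign, at 0.09, 0.05 and 0.09. The same scaling puts Rps21 at 0.14 and Rps27l at 0.13. The falls of Rps24 and Rps15a also did not pass the test without Virma WT replicate 1 (limma adjusted p = 0.353 and 0.0948), without Virma cKO replicate 1 (0.103 and 0.193) or without Virma cKO replicate 2 (0.0836 and 0.0736).

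**Figure D2:**
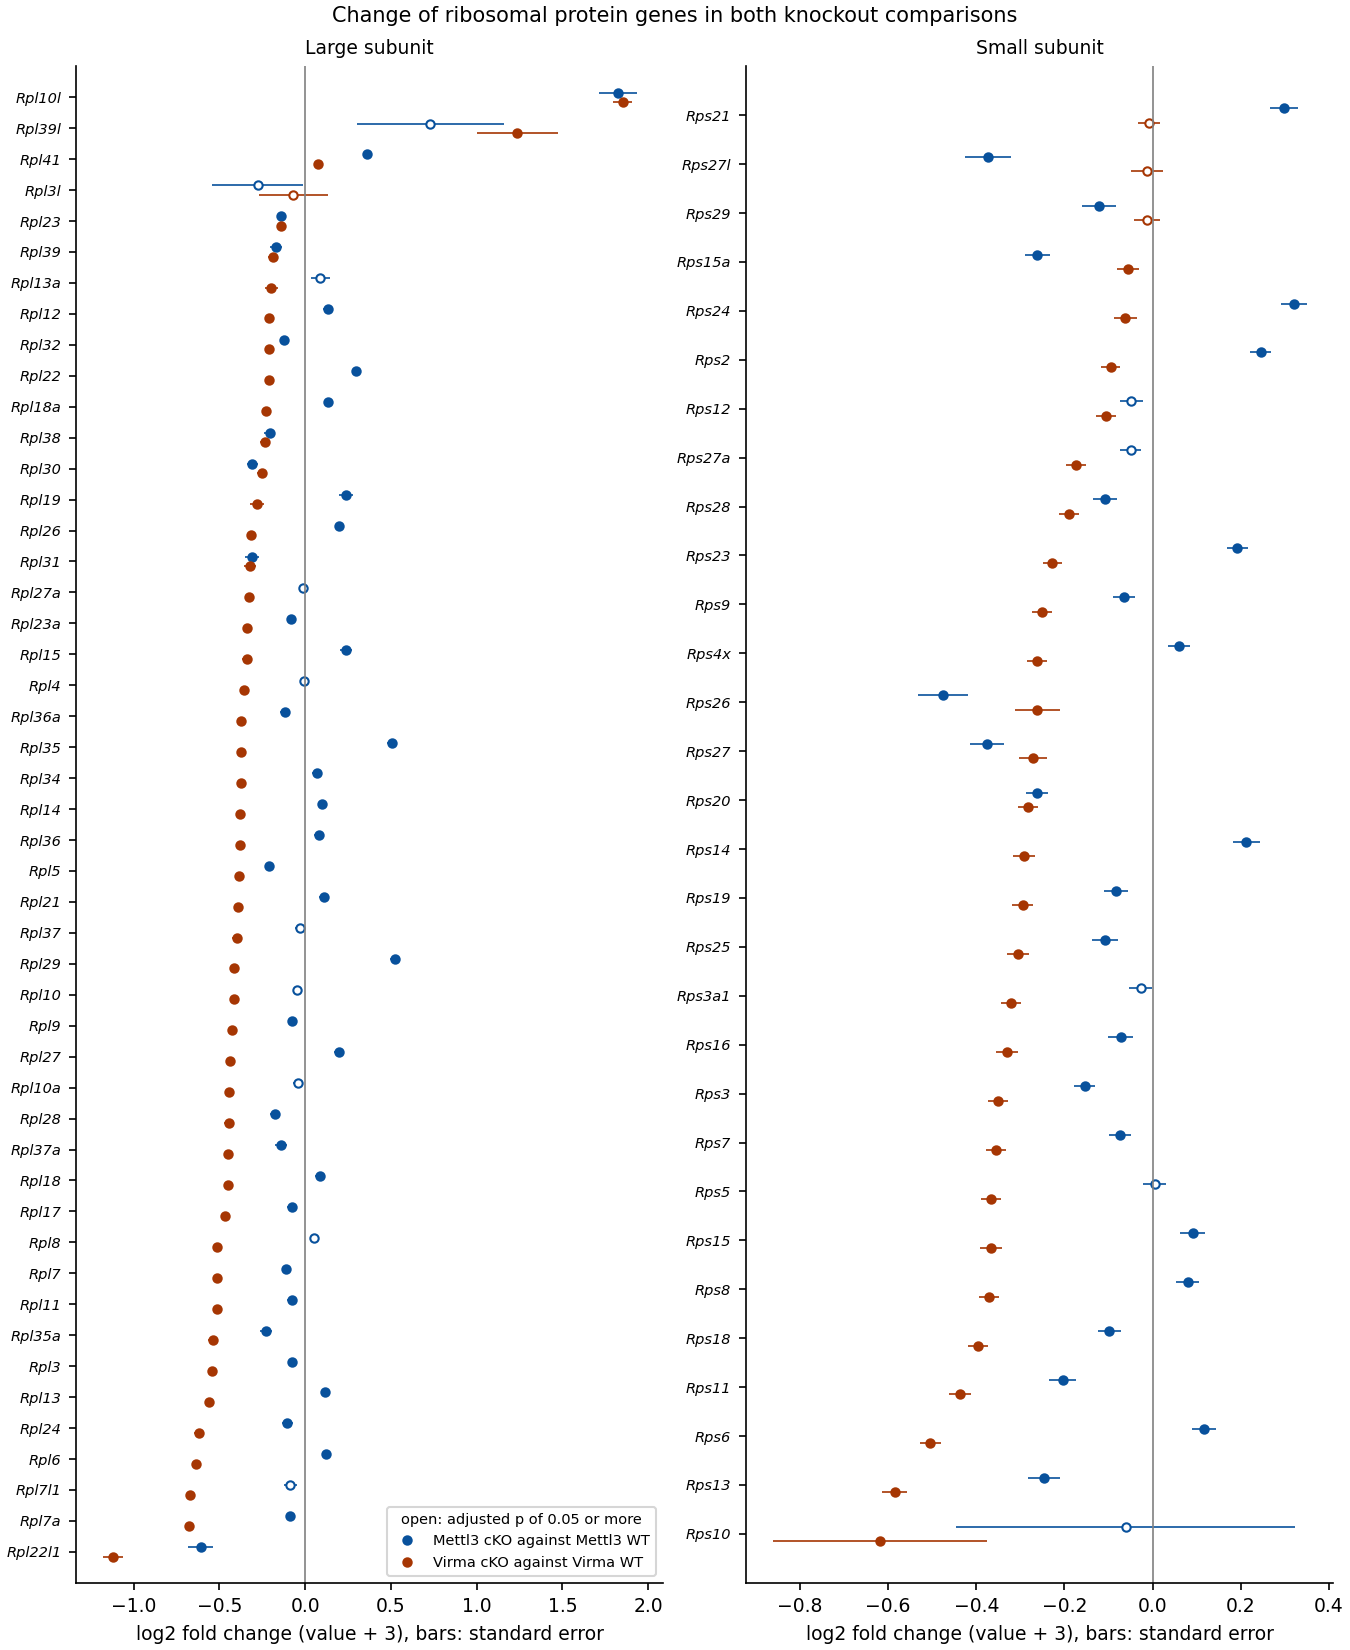
Log2 fold change on the scale of the scaled count plus 3 for 78 of the 79 genes, ordered by the Virma change, in the Mettl3 comparison (blue) and the Virma comparison (brown); bars are standard errors and open points did not pass an adjusted p of 0.05. The Virma points lie left of 0 for all but 3 genes, while the Mettl3 points lie on both sides.

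In the libraries labelled Mettl3 cKO the members moved in both directions against Mettl3 WT, and the class had no common direction. Of the 79 genes 27 rose, 37 fell and 15 did not pass the test. Over all genes tested 23.7% rose and 26.8% fell, against 34.2% and 46.8% of the members. The median of the members was −0.06 and that of all genes 0.00. Of the large subunit genes 18 rose and 20 fell, and of the small subunit genes 9 rose and 17 fell. The split depends on the processing. With scaling by the total of all other genes 29 rose and 23 fell, with scaling by the total count 29 rose and 26 fell, and after removal of a trend with length and GC content 12 rose and 51 fell. It also depends on the Mettl3 WT libraries: without replicate 1 of that group 16 rose and 27 fell, and without replicate 2 the numbers were 21 and 21.

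Apart from Rpl10l, given with the paralogues, the largest rises that passed the test were those of Rpl29 and Rpl35. Rpl29, which encodes eL29, was at 14098 and 14712 scaled counts in Mettl3 WT and at 20415 and 21017 in the libraries labelled Mettl3 cKO (log2 fold change 0.52 ± 0.028 SE, limma adjusted p = 3.54e-30). Rpl35, which encodes uL29, a protein at the exit of the peptide tunnel, went from 16527 and 16832 to 24009 and 23317 (0.50 ± 0.026, limma adjusted p = 3.55e-32). Of the exon bases of Rpl35, 66.2% overlap genes on the other strand in GENCODE M21, mostly Arpc5l, and the strand setting of the counting is not given. Rpl41 went from 18413 and 18236 to 24049 and 23109 (0.36 ± 0.026), and Rps24 from 23169 and 23241 to 30326 and 27664 (0.32 ± 0.029). Rps21 went from 7389 and 7613 to 9147 and 9292 (0.30 ± 0.032). Rpl22, which encodes an RNA-binding protein of the large subunit, went from 20546 and 20173 to 24705 and 25315 (0.30 ± 0.025). Rps2, whose protein lies at the mRNA entrance, went from 30698 and 32043 to 36440 and 37922 (0.25 ± 0.024). The groups were apart in all of these genes, which was a condition for naming them by their change. Rps2 did not pass the test once the trend with length and GC was removed (0.01, limma adjusted p = 0.642).

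Apart from Rpl22l1, given with the paralogues, the largest falls in the libraries labelled Mettl3 cKO were those of 5 small and 2 large subunit genes. Rps26, whose protein lies at the mRNA exit, was at 17842 and 18410 scaled counts in Mettl3 WT and at 13759 and 12316 in the libraries labelled Mettl3 cKO, a change of −0.48 ± 0.057 (limma adjusted p = 0.000262). Rps27 went from 5416 and 5731 to 4421 and 4154 (−0.38 ± 0.039), and Rps27l, its paralogue, from 2205 and 2034 to 1660 and 1612 (−0.37 ± 0.052). Rps15a went from 12283 and 11476 to 10052 and 9767 (−0.26 ± 0.029), and Rps20, a protein of the head of the small subunit, from 22812 and 23032 to 19706 and 18529 (−0.26 ± 0.025). Among large subunit genes Rpl31 went from 15678 and 14969 to 12941 and 11803 (−0.31 ± 0.039) and Rpl30 from 8312 and 8659 to 7098 and 6595 (−0.31 ± 0.033). None of these 7 genes had overlapping groups, which was also a condition for naming them. Rps20 did not pass the test with the length and GC trend removed (−0.04, limma adjusted p = 0.128). Against Virma WT as the control in place of Mettl3 WT, however, Rps26, Rps27 and Rps20 were higher in the libraries labelled Mettl3 cKO, by 0.13, 0.17 and 0.17, and the values of Rps15a and Rpl31 were 0.02 and 0.01.

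**Figure D3:**
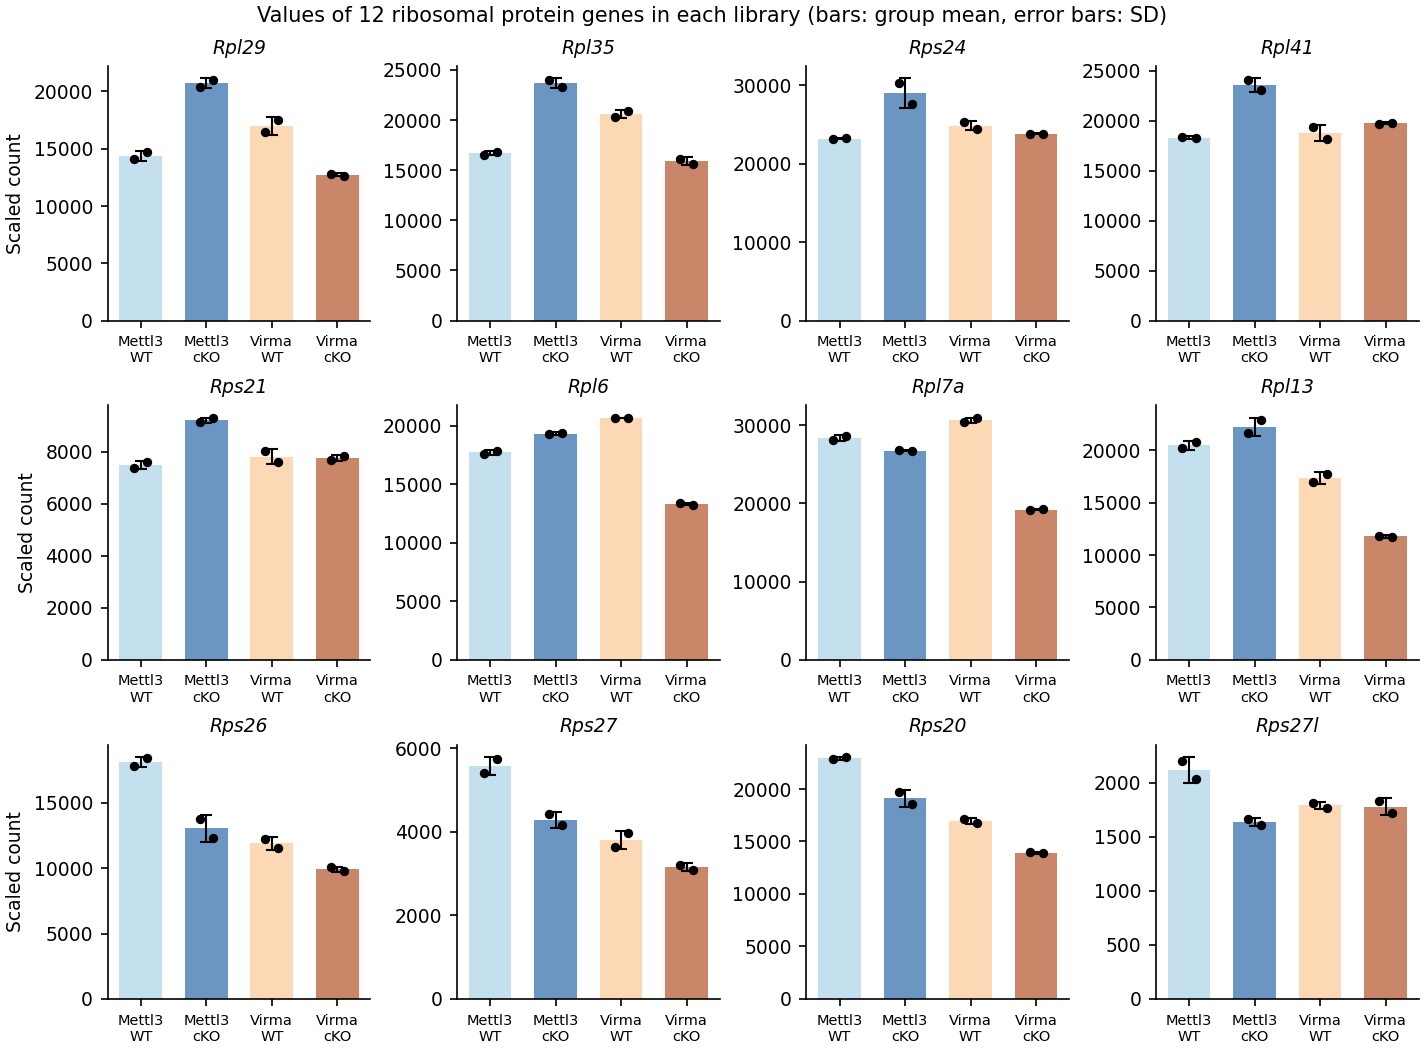
Scaled counts of 12 ribosomal protein genes in each library; bars are means of 2 libraries, error bars are SD and points are libraries. Rpl29 and Rpl35 are highest in Mettl3 cKO, Rpl6 and Rpl7a are lowest in Virma cKO, and Rps26, Rps27 and Rps20 are highest in Mettl3 WT.

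The WT groups themselves differed. In Virma WT 46 of the 79 genes were below their level in Mettl3 WT and 12 above it, against 20.7% and 23.8% of all genes tested. The median of the members was −0.13 and that of all genes 0.04. Rpl32, named here after its values were seen, was at 19157 and 19403 scaled counts in Mettl3 WT and at 11526 and 11999 in Virma WT (−0.71 ± 0.027, limma adjusted p = 4.29e-44). It was at 18007 and 17424 in the libraries labelled Mettl3 cKO and at 10133 and 10190 in Virma cKO, so its level followed the line more than the knockout label. Rps26 differed by −0.61, Rps27 by −0.55, Rpl38 by −0.48 and Rps20 by −0.44 between the WT groups. With Virma WT as the control, 48 members were higher and 10 lower in the libraries labelled Mettl3 cKO, with a median of 0.11. Of all 14287 genes tested 9605 passed with that control, in either direction, with a median of −0.01. Depth, line and possibly the library kit differ between the WT groups and cannot be told apart.

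The change in Virma cKO and the change in the libraries labelled Mettl3 cKO differed for most members. In the test of the difference 62 of 79 genes had a lower value in the Virma comparison and 2 a higher one, where 25.3% and 21.5% of all genes tested did. The median difference was −0.34 for the members and −0.02 for all genes tested. The size of this gap depends on the processing. Removing the length and GC trend brought the members' median to −0.20, against −0.02 for all genes in that fit. There 50 members passed with a negative difference and 10 with a positive one. Scaling by the total count brought the members' median to −0.23, against 0.09 for all genes, and 59 passed as negative and 8 as positive. Of the 79 genes 35 fell in both comparisons, 24 rose in the Mettl3 comparison and fell in the Virma comparison, and 0 did the opposite. As 72 members fell and 3 rose in the Virma comparison, these joint counts mostly follow the split of the Mettl3 comparison. They were not counted over all genes, and nothing further is read from them. Rpl10l and Rpl41 rose in both. The largest differences were those of Rpl29 (−0.94 ± 0.037, limma adjusted p = 1.14e-39) and Rpl35 (−0.88 ± 0.034). Rpl29 was at 16422 and 17543 in Virma WT and at 12839 and 12638 in Virma cKO, so it fell there by 0.41 on the log2 scale where it had risen by 0.52 in the Mettl3 comparison. Rpl6 (−0.76 ± 0.033) and Rpl13 (−0.68 ± 0.035) came next, after rises of 0.12 in the Mettl3 comparison. That of Rpl13 turned to −0.09 when the trend with length and GC was removed, and did not pass the test without Mettl3 WT replicate 1 (0.09, limma adjusted p = 0.0898). On the other side stood Rps27l (0.36 ± 0.063, limma adjusted p = 8.45e-07) and Rps15a (0.21 ± 0.037, limma adjusted p = 1.98e-06), which fell in the libraries labelled Mettl3 cKO and had values of −0.01 and −0.06 in the Virma comparison. Across the 79 genes the changes of both comparisons had a Spearman correlation of 0.13 and a Pearson correlation of 0.69, a description over genes that share the same libraries. The extremes in both were Rpl10l (1.82 and 1.85) and Rpl22l1 (−0.61 and −1.12), and the Pearson value, which such genes can dominate, was not computed without them.

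**Figure D4:**
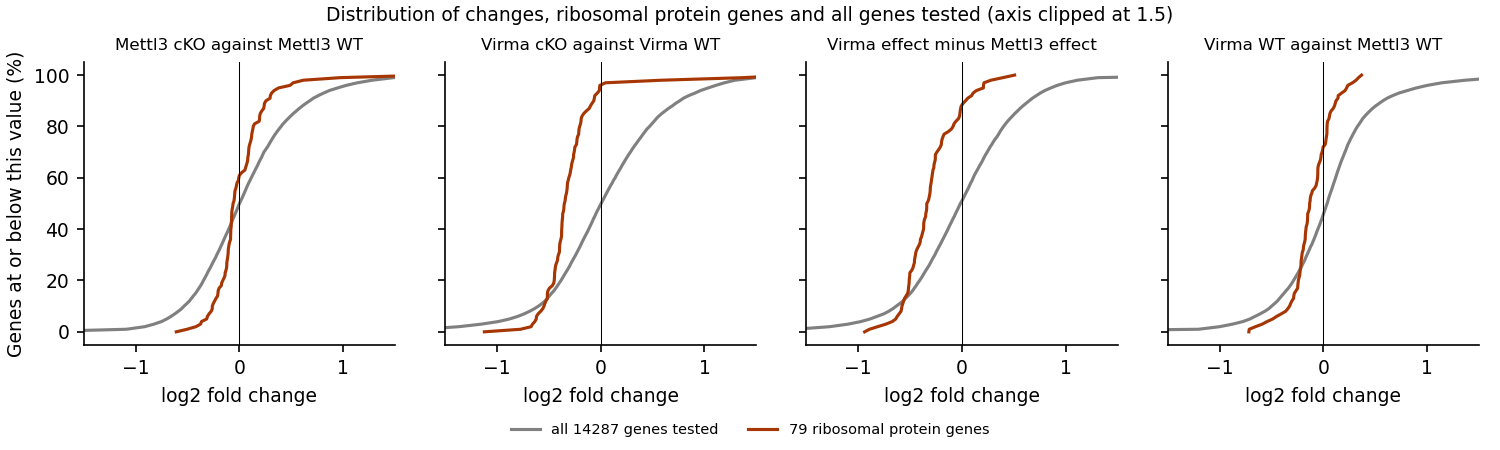
Cumulative share of genes (%) by log2 fold change for the 79 ribosomal protein genes (brown) and all 14287 genes tested (grey) in the 4 comparisons. The members are displaced to the left in the Virma comparison (median −0.35) and in the difference of effects (median −0.34), and lie around 0 in the Mettl3 comparison (median −0.06).

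Of the 6 paralogues on the list, 1 rose and 2 fell in the Mettl3 comparison, and 2 rose and 2 fell in the Virma comparison. Over all genes tested 23.7% rose and 26.8% fell in the first and 35.4% and 35.7% in the second. Nothing is read from the counts of paralogues. Rpl10l, an intronless copy of Rpl10 used mainly in male germ cells, was at 296 and 292 scaled counts in Mettl3 WT and at 1010 and 1090 in the libraries labelled Mettl3 cKO. The Virma WT libraries had 358 and 384 and those of Virma cKO 1378 and 1312. The groups are far apart in both lines, and the changes were 1.82 ± 0.11 (limma adjusted p = 1.31e-27) and 1.85 ± 0.056 (limma adjusted p = 1.91e-51), or 3.54-fold and 3.61-fold. The difference between the effects was 0.03 ± 0.12 (limma adjusted p = 0.873). Rpl10 itself was at 14462 and 14803 in Mettl3 WT, 14493 and 13855 in the libraries labelled Mettl3 cKO, 14497 and 14179 in the Virma WT pair and 10802 and 10716 in the Virma cKO pair. It did not pass the test in the Mettl3 comparison (−0.05 ± 0.027), and fell by 0.41 in the Virma comparison. In the Mettl3 comparison it passed as lower without Mettl3 cKO replicate 1 (−0.08, limma adjusted p = 0.0374) and with the length and GC trend removed (−0.10, limma adjusted p = 0.000242). Per kb of transcript, Rpl10l was at 287 in Mettl3 WT and 1315 in Virma cKO, where Rpl10 was at 17114 and 12584. The longest stretch that the transcripts of Rpl10l and Rpl10 share is 23 bases, and how reads with several positions were counted is not given.

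Rpl22l1, a paralogue that Rpl22 is known to repress, fell in both lines. It was at 1086 and 1032 scaled counts in Mettl3 WT and at 705 and 682 in the libraries labelled Mettl3 cKO (−0.61 ± 0.071, limma adjusted p = 3.15e-12). It went from 898 and 810 to 396 and 385 in the Virma comparison (−1.12 ± 0.058, limma adjusted p = 7.18e-33), the largest fall of any member there. Rpl22 rose by 0.30 in the Mettl3 comparison, as given above, and went from 19759 and 19495 to 16947 and 16926 in the Virma comparison (−0.21 ± 0.022). Rpl7l1, a paralogue of Rpl7 that acts in ribosome assembly, was at 4545 and 4482 in Virma WT and at 2863 and 2815 in Virma cKO (−0.67 ± 0.029). Its parent Rpl7 went from 25084 and 24892 to 17304 and 17682 (−0.51 ± 0.022). In the Mettl3 comparison Rpl7l1 did not pass the test (−0.09 ± 0.038, limma adjusted p = 0.0535) but did without Virma WT replicate 1 or 2 (limma adjusted p = 0.0382 and 0.0379) or with the length and GC trend removed (−0.11, limma adjusted p = 0.0101), and Rpl7 fell by 0.11.

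Rps27l, a p53 target gene as well as a paralogue of Rps27, fell in the libraries labelled Mettl3 cKO, as did Rps27, and was at 1816 and 1769 in Virma WT and at 1835 and 1721 in Virma cKO, where the groups overlap. Rpl39l, a paralogue of Rpl39 used in germ cells, had few reads. It was at 13 and 14 scaled counts in Mettl3 WT, 29 and 20 in the libraries labelled Mettl3 cKO, 16 and 12 in the Virma WT pair and 34 and 40 in the Virma cKO pair, an estimated 24 and 17 reads against 50 and 57 in the Virma pair. It rose in the Virma comparison (1.24 ± 0.24, limma adjusted p = 2.6e-06) and did not pass the test in the Mettl3 comparison (0.73 ± 0.43, limma adjusted p = 0.154). Rpl39 fell in both, by 0.17 and 0.19. Rpl3l, the paralogue of Rpl3 in heart and skeletal muscle, was at 27 to 59 scaled counts in all libraries. It did not pass the test in either comparison (−0.28 ± 0.27 and −0.07 ± 0.20).

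**Figure D5:**
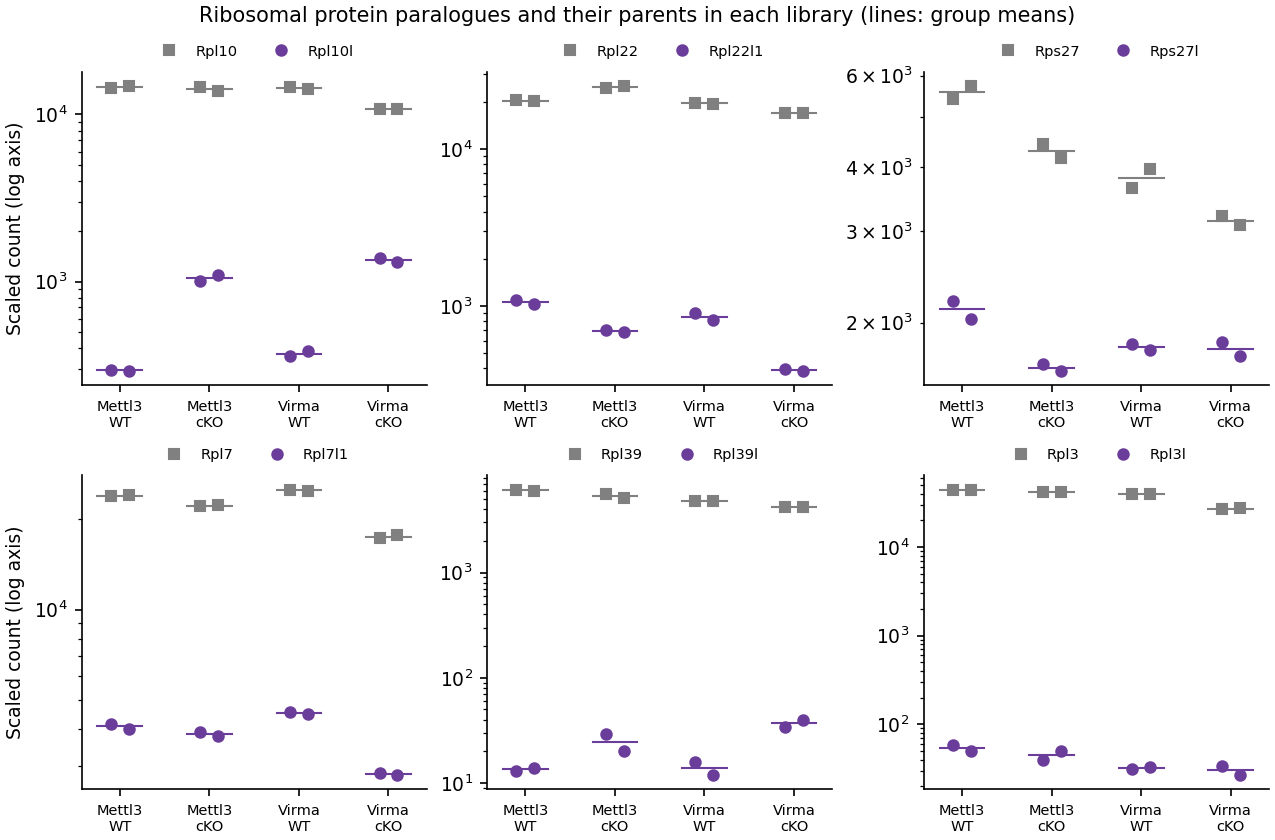
Scaled counts (log axis) of 6 paralogues (violet circles) and their parents (grey squares) in each library, with lines at group means. Rpl10l is higher in both cKO groups than in both WT groups, Rpl22l1 is lower in each cKO group than in its WT group.

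By level, Rpl26, Rpl4, Rpl3, Rpl8 and Rpl5 had the highest mean scaled counts over all libraries. Rpl26, whose protein sits near the tunnel exit, was at 44747 and 46187 in Mettl3 WT, 51143 and 52955 in the libraries labelled Mettl3 cKO, 40032 and 40655 in the Virma WT pair and 32090 and 32841 in the Virma cKO pair. It rose by 0.20 and fell by 0.31 in the respective comparisons, and the rise went to −0.01 when the trend with length and GC was removed. Rpl4 had 44161 and 44444, 44456 and 43783, 45629 and 44240, and 34918 and 35335 in the same order, and the Virma cKO libraries lay below the other 6. Rpl5, which with Rpl11 and 5S RNA binds Mdm2, had 43985 and 44502 in Mettl3 WT, 37867 and 38683 in the libraries labelled Mettl3 cKO, 35884 and 36610 in the Virma WT pair and 27593 and 27938 in the Virma cKO pair. It fell in both comparisons, by 0.21 and 0.38, and the first fall did not pass with the length and GC trend removed (−0.04, limma adjusted p = 0.119). Rpl8 went from 38730 and 40279 to 27559 and 27785 in the Virma comparison (−0.51 ± 0.022), and its change of 0.05 in the Mettl3 comparison did not pass the test (limma adjusted p = 0.0547). It passed without Mettl3 cKO replicate 1 (limma adjusted p = 0.0297) and without Virma WT replicate 1 (0.0287) or 2 (0.0286), and with the length and GC trend removed it was a fall that passed (−0.27, limma adjusted p = 6.04e-25). Per kb of annotated transcript the mean over libraries was highest for Rpl26 at 70266, and was 47030 for Rpl23a and 39719 for Rpl19. Rps10, Rpl3l and Rpl39l were lowest, at 26.6, 29.5 and 27.6 per kb. Rps10 is a core member needed in every ribosome, and 20.6% of its exon bases also belong to the gene model RPS10-NUDT3 in GENCODE M21. The part of that overlap in its low value was not tested.

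Of 9 ribosomal protein genes that the name rule leaves out, 8 fell and 0 rose in the Virma comparison, with a median of −0.21. In the Mettl3 comparison 4 rose and 2 fell. Over all genes tested 35.7% fell and 35.4% rose in the Virma comparison, and 26.8% fell and 23.7% rose in the Mettl3 comparison. Rpsa, a small subunit gene and the most abundant of these 9, was at 70730 and 75171 in Mettl3 WT and at 95336 and 101418 in the libraries labelled Mettl3 cKO (0.43 ± 0.031), and at 72843 and 76891 against 68517 and 70350 in the Virma pair (−0.11 ± 0.030). Rack1, a scaffold protein on the small subunit, fell by 0.43 in the Virma comparison. Of the 18 members mutated in Diamond-Blackfan anaemia, a failure of red cell formation, 17 fell in Virma cKO and 0 rose. In the libraries labelled Mettl3 cKO 6 of the 18 rose and 11 fell. Among all 79 members 72 fell and 3 rose in the first, and 27 rose and 37 fell in the second. Nothing is read from this subset beyond the class.

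Other mRNAs of the TOP class were also mostly lower in Virma cKO on the scaled counts, though not in their summed share of the library. Of 19 translation factors and related genes 17 fell and 1 rose, with a median of −0.36. In the libraries labelled Mettl3 cKO 10 of them fell and 3 rose, with a median of −0.09. Over all genes tested 35.7% fell and 35.4% rose in the Virma comparison, and 26.8% fell and 23.7% rose in the Mettl3 comparison. Eif3k, a subunit of an initiation factor, went from 4810 and 4979 scaled counts to 3024 and 2936 in the Virma comparison (−0.71 ± 0.028). Naca and Btf3, the subunits of the complex that binds nascent peptides, fell by 0.58 and 0.56 there and by 0.28 and 0.17 in the Mettl3 comparison. Eif4b, a cofactor of the initiation helicase, fell more in the Mettl3 comparison, from 16491 and 16454 to 11977 and 11396 (−0.49 ± 0.027), than in the Virma comparison (−0.30 ± 0.023), and the difference passed the test (limma adjusted p = 1.77e-06). Summed over the 19 genes, these mRNAs took 2.91% to 3.04% of values in all 8 libraries.

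Of the 17 genes of mTORC1 and the control of TOP mRNAs, 4 rose and 7 fell in the Mettl3 comparison, and 6 rose and 8 fell in the Virma comparison. Over all genes tested 23.7% rose and 26.8% fell in the first and 35.4% and 35.7% in the second, and nothing is read from these counts or from those of the 2 short lists that follow. Eif4ebp1, which binds Eif4e and blocks initiation, rose in both, from 5212 and 5298 to 9973 and 10115 (0.93 ± 0.034) and from 4219 and 4432 to 5811 and 5775 (0.42 ± 0.027). Deptor, an inhibitor of mTOR, fell by 0.84 in the first and rose by 0.22 in the second. Pelo, which rescues stalled ribosomes, was at 334 and 317 scaled counts in Mettl3 WT and at 929 and 958 in the libraries labelled Mettl3 cKO (1.52 ± 0.10). It was at 466 and 465 in Virma WT and at 1030 and 986 in Virma cKO (1.11 ± 0.053). Abce1, which splits the ribosome together with Pelo, fell in both, by 0.58 and 0.49. Of the 8 rescue and quality control genes, 2 rose and 3 fell in the Mettl3 comparison, and 1 rose and 6 fell in the Virma comparison. Grwd1, the chaperone of Rpl3, rose by 0.99 and 0.53, where of the 10 chaperone genes 3 rose and 3 fell, and 2 rose and 7 fell.

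Mitochondrial ribosomal protein genes, which are made from other nuclear genes and serve the organelle's own ribosome, were mostly higher in the libraries labelled Mettl3 cKO. There 50 of 77 rose and 5 fell, with a median of 0.31, where 23.7% of all genes tested rose and 26.8% fell. In the Virma comparison 18 rose and 36 fell, with a median of −0.08, where 35.4% of all genes rose and 35.7% fell. The median of all genes was 0.00 in both. In the difference of the effects 57 of 77 had a lower value and 1 a higher one (median −0.37). Over all genes tested 25.3% had a lower and 21.5% a higher value (median −0.02). Mrpl43 had the largest rise, from 961 and 1018 to 2874 and 3180 (1.61 ± 0.066). Whether the mitochondrial and cytosolic sets differ was not tested. Of 5 ribosomal protein pseudogenes tested 1 rose and 1 fell in each comparison, and nothing is read from these counts.

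Members have shorter transcripts than most genes. The median annotated transcript was 878 bases long in the 79 members and 3003 bases in 13999 tested genes with a match, and the median number of exons was 5 against 9. The GC content was 51.1% against 50.9%. The motif GGACT, a common form of the m6A site, searched in transcripts on their own strand, was absent from 31 members, 39.2%, and from 7.73% of tested genes, and per kb its median was 0.914 against 1.06. A match is a description of the letters only. Across the 76 members with a mean of at least 100 scaled counts, the Spearman correlation of GGACT per kb with the change was −0.01 in the Mettl3 and −0.15 in the Virma comparison. The number of exons had −0.37 with the Virma change and 0.05 with the Mettl3 change. GC content had 0.01 and 0.38 in that order, and the mean scaled count 0.03 and 0.36. The changes of members whose start holds a run of at least 8 bases had medians of −0.06 and −0.36 (31 genes), against −0.03 and −0.40 for the 11 whose longest run is under 5.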

How the data were processed

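Total RNA of 8 libraries in 4 groups was sequenced. Per the submitters' processing notes, STAR 2.7.11b, Subread, DESeq2, Trim Galore and FastQC 0.12.1 were used with build mm39; their roles are not given. The deposited table has whole numbers by gene symbol, treated here as a score: the authors' deposited values share 1 upper quartile and step like counts multiplied by a factor per library and rounded, although the table is presented as raw counts. The edgeR test first planned was therefore replaced, and the DESeq2 Wald test was not run. Factors and read numbers were estimated from the steps of low values.

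Genes with a value of at least 10 in at least 2 libraries (14287) were fitted with limma 3.58.1 in R 4.3.3, on log2(value + 3), 4 groups in 1 fit, with 4 residual degrees of freedom. Precision weights came from counting noise at the estimated reads, rounding and a common variance, and the variance was moderated with trend and robust settings. The weights were chosen after equal weights gave too many false calls on simulated data. Those data were made with the same estimated factors and the same dispersion for every gene. They therefore cannot show how the weights perform on the real libraries. P-values were adjusted by Benjamini-Hochberg over all genes tested, with a threshold of 0.05; fold changes understate those of low genes. No pair of libraries differed by less than the estimated sampling noise, so all 8 were kept separate.

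Named members are the 8 largest rises and 8 largest falls with groups apart in each knockout comparison, the 4 largest differences of effects per direction, the 5 highest levels, and paralogues with their parents. Of each other list up to 4 genes with the largest called change were eligible. The members and lists were chosen with earlier results of these data known. Of the 21812 symbols 21144 matched GENCODE M21, which gave lengths, exons, GC content and overlaps; promoters are from RefSeq (GRCm38.p6). Alternatives changed the scaling, filter, pseudocount, weights, threshold, pairs, control, length and GC trend, replicate block and libraries. The single values of some genes are not reported here, though counts, medians and shares include them. Figures were drawn with Python 3.11.15.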

Additional observations from a re-analysis of the deposited data

Results flagged for a closer look

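The changes in Virma cKO and in the libraries labelled Mettl3 cKO, each against its own WT, differed by limma's test of the difference for 64 of the 79 genes. Among the named large subunit genes the Virma change minus the Mettl3 change was −0.94 for Rpl29, −0.88 for Rpl35, −0.76 for Rpl6, −0.68 for Rpl13, −0.59 for Rpl7a, −0.58 for Rpl7l1, −0.56 for Rpl8 and −0.52 for Rpl24, on the log2 scale. It was −0.51 for Rpl22, Rpl22l1 and Rpl26, −0.47 for Rpl3, −0.40 for Rpl7, −0.37 for Rpl10, −0.35 for Rpl4, −0.29 for Rpl41 and −0.18 for Rpl5. Among the named small subunit genes it was −0.38 for Rps24, −0.34 for Rps2 and Rps13, −0.31 for Rps21, 0.21 for Rps15a and 0.36 for Rps27l. Rps15a and Rps27l were the members with a positive difference past the threshold. With the length and GC trend removed 10 members had a positive difference past it and 50 a negative one. The lines also differ in depth and in the level of these genes in WT, and the part of either was not tested.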

How the results depend on the processing

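The 72 falls in Virma cKO became 62 with scaling by the total, 63 with the total of all other genes and 69 with equal weights, all within 1.5 times, while the split in the libraries labelled Mettl3 cKO moved by more. Of 64 values of 32 named members, 37 had the same verdict in all alternatives that gave them, out of 25. The cause of the changes below was not tested. With the length and GC trend removed, 12 members rose in the Mettl3 comparison, alone or with the replicate block, and the median was −0.13 in both. With Virma WT as the control 48 rose and 10 fell, with a median of 0.11, where 9605 of all 14287 genes tested passed. With scaling by the total of all other genes 23 fell there. In the Virma comparison 9 rose with scaling by the total, 8 with the total of all other genes and 5 with the trend removed and the replicate block, and the median was −0.20 and −0.22 under those scalings. Leaving out 1 library in turn gave 16 to 28 rises and 21 to 38 falls in the Mettl3 comparison, and 69 to 72 falls and 2 to 3 rises in the Virma comparison.

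Signs that turned in the Mettl3 comparison with the trend removed, without and with the block, were those of Rpl13 (−0.0925 and −0.0926), Rpl26 (−0.0085 and −0.0086) and Rpl8 (−0.27 in both). With Virma WT as the control they were those of Rpl3 (0.077), Rpl31 (0.011), Rpl39 (0.17), Rpl3l (0.44), Rpl5 (0.078), Rpl6 (−0.10), Rps15a (0.022), Rps20 (0.17), Rps26 (0.13) and Rps27 (0.17). In the Virma comparison, scaling by the total and by the total of all other genes gave 0.091 and 0.078 for Rps15a, 0.052 and 0.039 for Rps2, 0.14 and 0.13 for Rps21, 0.085 and 0.072 for Rps24, and 0.13 and 0.12 for Rps27l. Rps21 was at 0.057 with the trend removed, with and without the block.

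Over all tested genes replicate numbers did not pair the libraries: the correlations of same-numbered deviations were −0.01 to 0.02. Over the members alone they were 0.476, 0.279, −0.544, 0.723, −0.663 and −0.435 for the 6 pairs of groups, with both signs, and over genes above 100 the highest was 0.113. Members with few reads, Rps10, Rpl39l and Rpl3l, can dominate the values over the members, which were not computed without these genes. With the replicate block 28 members rose and 39 fell in the Mettl3 comparison, 3 rose and 72 fell in the Virma comparison, 68 differed between the effects and 62 between the WT groups. Keeping all 8 libraries separate, planned as an alternative, is the fit reported. Pseudocounts of 1 and 10, equal weights, trimmed mean scaling and the Mettl3 WT or Virma cKO pair as 1 sample were chosen after seeing the data. The depth of Mettl3 WT limits the Mettl3 comparison.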
